A study of Rattus norvegicus with 24 samples.

Results

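A set of 7 transcription factor genes of the hypothalamus was followed across the 24 mRNA libraries of the series. Its members were chosen by name, as genes that build or mark hypothalamic neurons: Sim1, Arnt2, Pou3f2, Otp, Nkx2-1, Nr5a1 and Fezf1. These are 7 of the 35032 genes in the table, which gives 1568 genes a transcription factor family. All 7 were found by symbol, and no other gene of the table overlaps any of them.

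The libraries came from male Sprague-Dawley rats, 7 weeks of age when bought. The tissues were the hypothalamic paraventricular nucleus (PVN), whose neurons start the hormonal stress response, and the amygdala's central nucleus (CEA). Control rats (NC) were restrained but not operated on, and hepatectomy rats (HT) lost part of the liver under isoflurane and were restrained as well. Electroacupuncture rats (EA) had the same operation with current passed through needles at the points Zusanli and Sanyinjiao before and after it, and sham rats (SEA) had the operation and the needles without current. Brains were collected 1 day after stimulation ended. Each of the 8 groups held 3 libraries. The labels number them without saying that each is a separate rat, so the p-values measure the spread between these libraries.

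In the embryo, Sim1 and Arnt2 form a pair of basic helix-loop-helix PAS proteins that neurons of the PVN need, and the POU protein Pou3f2 acts downstream of this pair in neurons that make corticotropin-releasing hormone, vasopressin and oxytocin. Otp, a homeodomain protein, is needed for the same neurons and for those that make somatostatin and thyrotropin-releasing hormone. The other 3 genes are known from neighbouring territory. Nkx2-1 is a homeodomain factor of the ventral and tuberal hypothalamus, and Nr5a1 (steroidogenic factor 1) and the zinc finger gene Fezf1 mark neurons of the ventromedial nucleus. A name such as PVN neuron identity therefore covers Sim1, Arnt2, Pou3f2 and Otp, but not Nkx2-1, Nr5a1 and Fezf1. Arnt2 and Pou3f2 are also widely expressed in the brain.

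Sim1 (ENSRNOG00000037600) is given on chromosome 20 from 55594676 to 55673995, plus strand. Arnt2 (ENSRNOG00000013017) is on chromosome 1 from 146399217 to 146556171, minus strand, and Pou3f2 (ENSRNOG00000006908) on chromosome 5 from 36681528 to 36683356, minus strand. Otp (ENSRNOG00000010560) is on chromosome 2 from 24546536 to 24554683, plus strand. Nkx2-1 (ENSRNOG00000008644) is on chromosome 6 from 77418096 to 77421286, Nr5a1 (ENSRNOG00000012682) on chromosome 3 from 22999616 to 23020441, and Fezf1 (ENSRNOG00000007608) on chromosome 4 from 50309281 to 50312608, each on the minus strand. The table names no genome build for these positions, and they may not be those of the build that the methods name.

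Promoter windows of 4 of the genes are printed because these genes form the contrast in the results, Nr5a1 and Fezf1 as the pair that varied together in the PVN and Otp and Sim1 as the pair of PVN factors that was nearly absent from the CEA. Each window is the 250 bases before the gene's start in RefSeq, 5′ to 3′ on the gene's own strand, in build GRCr8. The windows are chr3:42896047-42896296 (minus strand) for Nr5a1, chr4:52731719-52731968 (minus strand) for Fezf1, chr2:27842642-27842891 (plus strand) for Otp and chr20:55410327-55410576 (plus strand) for Sim1. Capitals mark a match to one of 6 motifs, of which these 4 windows hold a single stretch.
Nr5a1: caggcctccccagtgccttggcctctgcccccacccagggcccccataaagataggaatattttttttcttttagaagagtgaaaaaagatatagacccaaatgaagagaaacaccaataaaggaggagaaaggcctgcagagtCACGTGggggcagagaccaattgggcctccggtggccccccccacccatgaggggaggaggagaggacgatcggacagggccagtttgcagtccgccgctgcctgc
Fezf1: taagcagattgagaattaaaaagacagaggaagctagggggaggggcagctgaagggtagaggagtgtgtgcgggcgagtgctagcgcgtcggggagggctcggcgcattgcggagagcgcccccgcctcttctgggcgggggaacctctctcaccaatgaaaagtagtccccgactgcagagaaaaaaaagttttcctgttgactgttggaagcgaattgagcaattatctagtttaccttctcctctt
Otp: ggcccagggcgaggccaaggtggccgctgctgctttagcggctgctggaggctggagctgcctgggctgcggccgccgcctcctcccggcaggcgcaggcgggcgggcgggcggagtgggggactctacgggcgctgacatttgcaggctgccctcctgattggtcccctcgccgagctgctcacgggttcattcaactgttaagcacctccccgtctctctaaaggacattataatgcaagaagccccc
Sim1: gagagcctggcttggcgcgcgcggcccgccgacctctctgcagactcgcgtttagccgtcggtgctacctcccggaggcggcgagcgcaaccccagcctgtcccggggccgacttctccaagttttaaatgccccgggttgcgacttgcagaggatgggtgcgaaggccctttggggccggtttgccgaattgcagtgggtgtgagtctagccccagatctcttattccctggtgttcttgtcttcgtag

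The motifs were searched on both strands: ACGTG, the core bound by pairs of Sim1 and Arnt2, CACGTG (the E-box, which contains that core on both strands), TAATTA, a motif of homeodomain proteins, ATGCAAAT, the octamer of POU proteins, AAGGTCA, the site of Nr5a1, and CAAGTG, the site of NK2 proteins such as Nkx2-1. The Nr5a1 window held CACGTG, as did 5.59% of 33469 promoter windows of the same length, starting 106 bases before the gene's start. An E-box in the proximal promoter of Nr5a1 is known from earlier work on this gene. ACGTG lay in the windows of Nr5a1, within that E-box, and of Nkx2-1, and in 16.6% of all windows. The homeodomain, POU, Nr5a1 and NK2 motifs, in this order, were in 0 of the 7 windows and in 4.86%, 1.56%, 3.99% and 11.7% of all windows. The windows of the 7 genes ran from 53.6% G and C in Fezf1 to 77.6% in Arnt2, against a median of 51.2% over all windows.

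Levels are given as CPM, which puts the counts of every library on a common total, with TMM factors over all 24 libraries. The libraries held 13152772 to 18607032 counts, so that 3 counts, the most that a count of 0 allows, were worth 0.161 to 0.228 CPM (counting error only). In the PVN all 7 genes were above this limit in each of the 12 libraries. To compare genes with each other, CPM was divided by the gene length in kilobases. On that scale Arnt2 had the highest median over the PVN libraries, 31.0 CPM per kb, followed by Otp with 27.9, Pou3f2 with 12.8, Nkx2-1 with 10.4, Fezf1 with 6.76, Nr5a1 with 3.09 and Sim1 with 1.72. Otp was above Pou3f2, Nkx2-1 above Fezf1 and Fezf1 above Nr5a1 in 12 of 12 libraries, and Nr5a1 was above Sim1 in 11. Arnt2 exceeded Otp in only 9 of 12 and Pou3f2 exceeded Nkx2-1 in 8, so these neighbours did not separate. The length of Otp in the table, 978 bases, is a multiple of 3 and may hold coding sequence alone, which would raise its level per kb.

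In the CEA the order was different. Arnt2 led again with a median of 26.7 CPM per kb, Pou3f2 had 8.96 and Nkx2-1 3.51, whereas Otp had 0.580, Fezf1 0.134, Nr5a1 0.0679 and Sim1 0.0403. Sim1 held 0 to 16 counts per CEA library, Fezf1 0 to 19, Nr5a1 0 to 7 and Otp 2 to 23. Nr5a1 was at 0 in 4 of the 12 CEA libraries, 1 of each group. These 4 genes were thus near the counting limit in the CEA, while the other 3 were well above it.

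**Figure D1:**
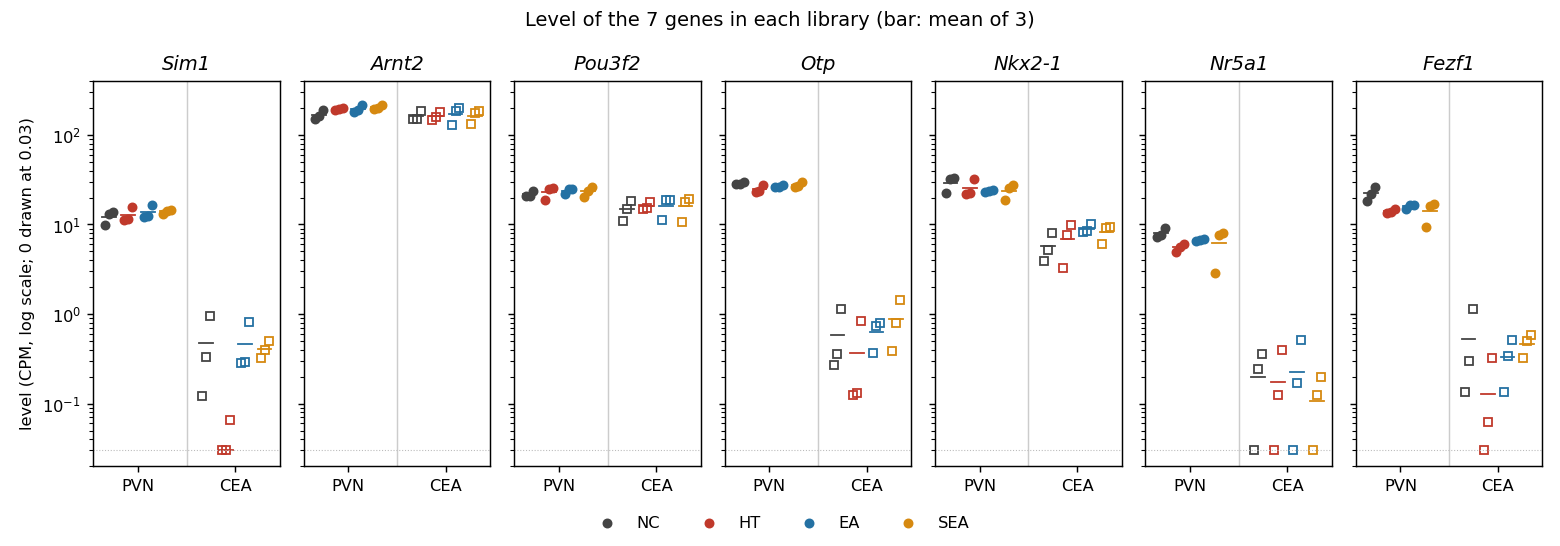
Level of each gene (CPM, log axis, with 0 drawn at 0.03) in the PVN (filled circles) and the CEA (open squares), 1 point for a library, colored by treatment, with a bar at the mean of 3 libraries. Sim1, Otp, Nr5a1 and Fezf1 fall to at most 1.43 CPM in the CEA, whereas Arnt2 lies between 130 and 215 CPM in both regions.

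The first comparison asked how far each gene separates the PVN from the CEA. In NC rats, Otp, Fezf1, Nr5a1, Sim1 and Nkx2-1 were higher in the PVN, and Arnt2 was at about the same level in both regions. The call was made for 5 of the 7 genes (edgeR adjusted p under 0.05), against 26.4% of all 16748 genes tested in either direction and 13.7% higher in the PVN. Sim1, Otp, Nr5a1 and Fezf1 passed the filter on low counts through their PVN libraries, so the count of calls is no support on its own.

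Otp had 28.0, 30.1 and 28.1 CPM in PVN NC replicates 1 to 3, and 1.13, 0.361 and 0.267 CPM in CEA NC, from 19, 6 and 4 counts. The fitted difference on the log2 scale was 5.58 (SE 0.41, edgeR adjusted p = 0.000427). Sim1 had 13.6, 13.1 and 9.85 CPM in PVN NC and 0.955, 0.120 and 0.334 CPM in CEA NC, from 16, 2 and 5 counts. The groups lay far apart for both genes, and the log2 fold change of Sim1 was 4.67 (SE 0.54, edgeR adjusted p = 0.00165).

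The pair of ventromedial genes separated the regions as widely. Fezf1 had 26.5, 18.2 and 22.0 CPM in PVN NC and 1.13, 0.301 and 0.134 CPM in CEA NC, a log2 fold change of 5.37 (SE 0.54, edgeR adjusted p = 0.00110). Nr5a1 had 9.15, 7.19 and 7.72 CPM in PVN NC and 0.358, 0.241 and 0 CPM in CEA NC, a log2 fold change of 5.25 (SE 0.57, edgeR adjusted p = 0.00142). Nkx2-1 was present in both regions, with 33.1, 22.6 and 32.1 CPM in PVN NC and 7.94, 5.24 and 3.94 CPM in CEA NC (log2 fold change 2.36, SE 0.28, edgeR adjusted p = 0.00186).

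Pou3f2 had 20.8, 23.4 and 20.9 CPM in PVN NC and 18.3, 14.9 and 11.0 CPM in CEA NC. The groups did not overlap, as in 6 of the 7 genes and, with the PVN higher, 23.1% of all genes with at least 60 counts over the 6 libraries, but the log2 fold change of 0.57 (SE 0.20) did not pass the threshold (edgeR adjusted p = 0.0735). Arnt2 had a log2 fold change of 0.06 (SE 0.14, edgeR adjusted p = 0.784), with 151 to 191 CPM in PVN NC and 150 to 186 CPM in CEA NC. CEA NC replicate 1 held the most counts of Sim1, Otp, Nr5a1 and Fezf1 among the CEA NC libraries. Without it the log2 fold changes were 5.74 for Sim1, 6.49 for Otp, 5.93 for Nr5a1 and 6.62 for Fezf1, and that of Pou3f2 was 0.76 (edgeR adjusted p = 0.0301), so that 6 of the 7 genes and 23.1% of all genes were called. Without CEA NC replicate 3 the values were lower, 5.25 for Otp, 4.71 for Nr5a1, 4.94 for Fezf1 and 0.39 for Pou3f2 (edgeR adjusted p = 0.186), and the lowest value of Sim1 was 4.21, without CEA NC replicate 2.

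The same difference was then read in the HT, EA and SEA rats, whose libraries the NC comparison does not use. All 7 genes were higher in the PVN there (edgeR adjusted p under 0.05), against 52.8% of the 17539 genes tested in either direction and 25.6% higher in the PVN. Sim1, Nr5a1 and Fezf1 passed the filter through their PVN libraries here as well, so this count is no support on its own either. Log2 fold changes were 5.57 for Fezf1 (SE 0.27), 5.53 for Sim1 (SE 0.31), 5.39 for Otp (SE 0.23) and 5.13 for Nr5a1 (SE 0.39). Nkx2-1 had 1.61 (SE 0.16), Pou3f2 0.54 (SE 0.12, edgeR adjusted p = 0.000671) and Arnt2 0.26 (SE 0.08, edgeR adjusted p = 0.0121). Leaving out any 1 of the 18 libraries left all 7 calls in place. In terms of mean CPM over all 12 libraries of a region, Fezf1 was 45.9-fold, Otp 43.8-fold, Sim1 38.7-fold and Nr5a1 37.4-fold higher in the PVN, Nkx2-1 3.45-fold, Pou3f2 1.46-fold and Arnt2 1.16-fold.

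**Figure D2:**
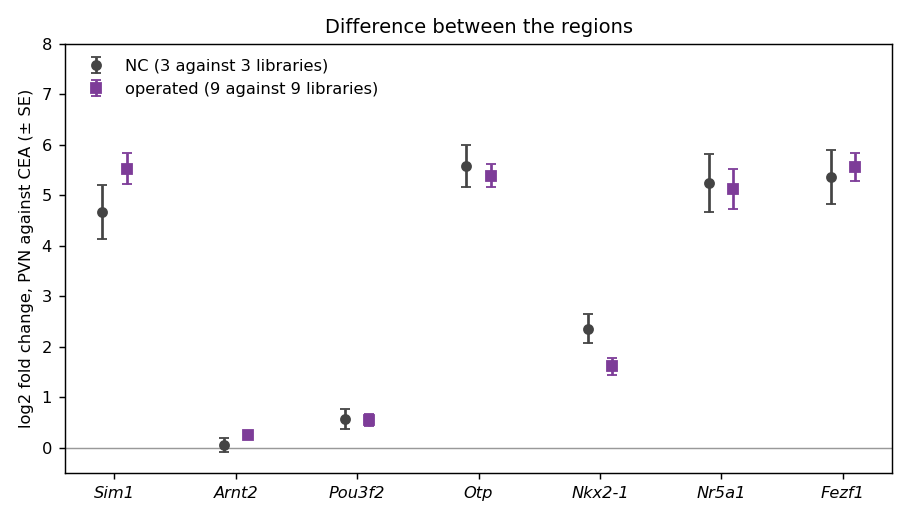
Log2 fold change of each gene between the PVN and the CEA with its standard error, in NC libraries (circles) and in operated libraries (squares). Sim1, Otp, Nr5a1 and Fezf1 lie between 4.67 and 5.58, Nkx2-1 at 2.36 and 1.61, and Pou3f2 and Arnt2 below 0.6.

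Lists of other genes were read beside these values, each by its count of genes called in NC, where 26.4% of all genes were called. Of peptides made by PVN neurons, 5 of 5 were higher in the PVN, among them Crh (corticotropin-releasing hormone, log2 fold change 3.05, SE 0.40) and Trh (1.98, SE 0.29). Genes of the ventromedial nucleus other than Nr5a1 and Fezf1 were higher in 3 of 3, such as Adcyap1, which encodes the peptide PACAP (4.52, SE 0.14), and Sox14, which had 3.71 ± 0.917 CPM in PVN NC (SD, n = 3) and 0 counts in CEA NC. Arcuate and tuberal genes were higher in 8 of 8 tested, for example Pomc (4.14, SE 0.29) and Ghrh (5.03, SE 0.40). Of genes of the anterior hypothalamus and suprachiasmatic nucleus, 3 of 5 were higher in the PVN, with the smallest p for Lhx1 (4.68, SE 0.27) and Six6 (9.56, SE 0.56), and 1 was lower, Vip (-1.91, SE 0.50). The PVN libraries thus held transcripts known from the ventromedial and arcuate nuclei and from the anterior hypothalamus beside those of the PVN. Nr0b1, Sox14, Agrp, Kiss1, Ghrh, Hmx2, Hmx3, Prdm12, Lhx1 and Six6 passed the filter on low counts through their PVN libraries. The counts of calls in their lists are therefore no support on their own. Genes of the central amygdala and striatum went the other way, with 7 of 9 lower in the PVN, among them Bcl11b (log2 fold change -4.48, SE 0.24) and Ppp1r1b, the phosphoprotein DARPP-32 (-4.23, SE 0.23).

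The libraries also differed in tissue around these nuclei. Genes of the thalamus summed to 89.0 to 303 CPM over the PVN libraries and 66.9 to 476 CPM over the CEA libraries, and 1 of 6 was called between the regions in NC (Synpo2, log2 fold change -2.55, SE 0.65). The 3 genes of the ependyma measured were all higher in the PVN (Rax passed the filter through its PVN libraries), and the 4 genes of oligodendrocytes all lower. Also lower in the PVN were 2 of 4 microglia genes (Cx3cr1 and Csf1r), Flt1, the 1 endothelial gene tested, 1 of 4 genes of the cortex and basolateral amygdala (Slc17a7, -4.57, SE 1.03) and 1 of 4 of the choroid plexus (Ttr). Of 4 neuron genes, Stmn2 was higher and Rbfox3 lower, and 0 of 4 astrocyte genes were called (2 had an edgeR unadjusted p under 0.05, as did 40.0% of all genes). Medial amygdala genes, listed because Sim1 and Otp are known there too, had 1 of 3 called, Lhx5 (3.44, SE 0.75), which was higher in the PVN. Choroid plexus genes summed to 1049 CPM in CEA NC replicate 2, 369 in CEA EA replicate 1 and 1742 in CEA SEA replicate 2, against at most 21.7 CPM in the other libraries. The part of such tissue in the differences between regions was not tested.

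Relatives of the 7 genes were read in the same comparison. Among 9 such genes in NC, 2 were called higher in the PVN, 3 lower and 4 did not pass. The 2 higher were Nkx2-4, the closest relative of Nkx2-1, and Nr5a2, that of Nr5a1. Both passed the filter on low counts through their PVN libraries. Nkx2-4 had 9.40 ± 2.82 CPM in PVN NC and 0.0398 ± 0.0690 CPM in CEA NC (SD, n = 3), and Nr5a2 had 0.973 ± 0.251 and 0.122 ± 0.103 CPM. Pou3f1 and Pou3f3, the sister genes of Pou3f2, were lower in the PVN (log2 fold change -3.35, SE 0.34, and -0.99, SE 0.14), and so was Pou3f4. For Arnt, the relative of Arnt2, the value was 0.00 (SE 0.13), for Sim2 0.57 (SE 0.28, edgeR adjusted p = 0.181) and for Fezf2 0.00 (SE 0.27).

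Hepatectomy was examined next, within the PVN. None of the 7 genes passed the adjusted threshold of edgeR between HT and NC, where 0.012% of 16727 genes did. At an unadjusted p under 0.05 there were 2, Fezf1 and Nr5a1, against 11.0% of all genes, and DESeq2 gave the same 2 and also called 0 at its adjusted threshold. With the replicate number as a block this p was under 0.05 for Fezf1 alone, and with all 24 libraries in the fit for 0 of the 7. Both were lower in HT. In CPM, 3 genes were lower in each HT library than in each NC library, namely Fezf1, Nr5a1 and Otp, and 10.2% of 16683 genes with at least 60 counts over the 6 libraries showed this. In bulk tissue, fewer cells that express a gene and less RNA per cell cannot be told apart.

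Fezf1 had 14.9, 13.8 and 13.5 CPM in HT replicates 1 to 3, below the 18.2 to 26.5 CPM of NC. This was a log2 fold change of -0.63 (SE 0.16, edgeR unadjusted p = 0.00395, adjusted p = 0.418). Nr5a1 had 4.94, 6.06 and 5.63 CPM in HT, below the 7.19 to 9.15 CPM of NC, with a log2 fold change of -0.51 (SE 0.17, edgeR unadjusted p = 0.0213, adjusted p = 0.418). Without PVN NC replicate 2, the NC library with the least Fezf1 and Nr5a1, the value of Fezf1 was -0.76 (edgeR adjusted p = 0.00739), and that of Nr5a1 was -0.58 (edgeR adjusted p = 0.0679). In that fit 2 of the 7 genes, Fezf1 and Arnt2, and 20.2% of all genes passed the adjusted threshold. Over all 6 libraries left out in turn, the adjusted p ran up to 0.801 for both.

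The 4 factors of PVN neurons had values closer to 0. Sim1 had 15.8, 11.4 and 11.4 CPM in HT and 13.6, 13.1 and 9.85 in NC, and the groups overlapped (log2 fold change 0.10, SE 0.20, interval of 2 SE on each side -0.30 to 0.49). Otp had 27.4, 23.7 and 23.2 CPM in HT, just below the 28.0 to 30.1 of NC (log2 fold change -0.19, SE 0.11, interval -0.41 to 0.03). Pou3f2 had 24.6, 25.8 and 18.7 CPM in HT, and its log2 fold change was 0.11 (SE 0.15, interval -0.19 to 0.41). For Arnt2, with 195, 189 and 201 CPM in HT, the value was 0.24 (SE 0.11, interval 0.02 to 0.45, edgeR unadjusted p = 0.0583, adjusted p = 0.418). Without PVN NC replicate 2 it was 0.34 (edgeR adjusted p = 0.0144). Nkx2-1 had 22.2, 22.5 and 32.5 CPM in HT, with replicate 3 at the level of NC replicates 1 and 3 (log2 fold change -0.15, SE 0.20).

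Other genes of the same dissection, read side by side, moved as follows between HT and NC, with 0 called in every list. Of the PVN peptides, 4 of 5 had an unadjusted p under 0.05, all lower in HT, where 11.0% of all genes had such a p by edgeR. The median log2 fold change over the 5 was -0.78, where the median over all genes was -0.01. The summed level of the peptides was 1167 to 1716 CPM in NC and 537 to 1110 CPM in HT. Crh was lower in HT (log2 fold change -0.78, SE 0.27, edgeR unadjusted p = 0.0209, adjusted p = 0.418). The study instead reported more CRH mRNA and protein in the PVN after HT. Of the other ventromedial genes, 0 of 3 had an unadjusted p under 0.05, with a sum of 80.9 to 101 CPM in NC and 73.6 to 88.2 CPM in HT. Of the arcuate genes 3 of 8 did, all lower, with 89.0 to 101 and 62.7 to 90.4 CPM. Thalamus genes had 3 of 6 at an unadjusted p under 0.05, all higher, with 89.0 to 198 CPM in NC and 177 to 303 CPM in HT. Of the astrocyte genes 2 of 4 (Gfap and Aqp4) had such a p, and of the choroid plexus, ependyma and central amygdala genes 1 of 3 (Ttr), 1 of 3 (Ccdc153) and 1 of 9 (Penk), all lower in HT. None of the 9 relatives of the members had an unadjusted p under 0.05. The part of these other tissues in the values of Fezf1 and Nr5a1 was not tested.

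EA was compared with HT, and SEA with both. For EA against HT, 0 of the 7 genes passed the edgeR adjusted threshold (0.0961% of 16641 genes did) and 0 had an unadjusted p under 0.05 by edgeR or DESeq2 (5.67% of all genes did by edgeR). Nr5a1 had 6.56, 6.85 and 6.65 CPM in EA, above each HT library and below each NC library (log2 fold change against HT 0.26, SE 0.14, interval -0.03 to 0.54). Fezf1 had 14.9, 16.7 and 16.6 CPM in EA (0.18, SE 0.10, interval -0.02 to 0.37). The lowest EA library and the highest HT library were both at 14.9 CPM, and EA stayed below NC here as well. Nr5a1 was thus the gene whose EA libraries stood clear of HT, and Fezf1 was tied at its edge. Taken without a tolerance, 7.26% of 16667 genes had all EA libraries above all HT libraries. The comparisons with NC and with EA share the HT libraries.

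The same lists were read between EA and HT, with 0 called in every list. PVN peptides had 4 of 5 (Avp, Crh, Trh and Sst) at an unadjusted p under 0.05, all higher in EA, against 5.67% of all genes by edgeR. The median log2 fold change over the 5 was 0.47, against 0.00 over all genes. For Crh the study reported the opposite direction, with CRH mRNA and protein decreased in EA. The peptides summed to 1112 to 1348 CPM in EA and 537 to 1110 CPM in HT, so the lowest EA and the highest HT library were level. Within HT, replicates 1 and 2 had 1051 and 1110 CPM, and replicate 3 had 537 CPM. Choroid plexus genes had 2 of 3 (Kl and Folr1), both higher, with a sum of 9.10 to 10.2 CPM in EA and 5.36 to 7.12 CPM in HT. The ependyma, astrocyte and central amygdala lists had 1 gene each (Ccdc153, Gfap and Meis2), all higher, and the thalamus list had 1 of 6 (Synpo2), lower. The other ventromedial genes had 0 of 3 and the arcuate genes 0 of 8. In SEA against HT, 3 of 5 peptides (Avp, Trh and Sst) had an unadjusted p under 0.05, all higher in SEA, where 4.38% of all genes did. The median over the 5 was 0.37 and the sum 1097 to 1349 CPM in SEA. Other lists with such a p were ependyma (2 of 3), microglia (1 of 4) and anterior hypothalamus (1 of 5), all higher, and astrocytes (2 higher and 1 lower of 4). In EA against SEA, 1 of 5 peptides had such a p (Sst, higher in EA), against 5.21% of all genes, with a median of 0.08. So did 1 of 9 central amygdala, 1 of 3 medial amygdala and 1 of 5 anterior hypothalamus genes, all lower in EA. The part of these tissues in the values of Nr5a1 and Fezf1 was not tested.

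Across the other 5 genes, log2 fold changes of EA against HT ran from -0.14 for Nkx2-1 to 0.09 for Otp. Sim1 had 12.4, 12.1 and 16.7 CPM in EA (0.08, SE 0.17, interval -0.26 to 0.43) and Otp 26.2, 27.6 and 26.4 CPM (0.09, SE 0.09, interval -0.08 to 0.27). The interval was -0.21 to 0.30 for Pou3f2 and -0.13 to 0.13 for Arnt2. SEA against HT ranged from -0.12 to 0.16 over the 7 genes and EA against SEA from -0.06 to 0.17. In both, 0 genes had an unadjusted p under 0.05 by edgeR and by DESeq2, against 4.38% and 5.21% of all genes by edgeR, and 0.0% of all genes passed its adjusted threshold. In CPM, 0 of the 7 separated SEA from HT or EA from SEA, where 9.92% and 10.7% of all genes did. For SEA against HT this count ran from 0 to 2 with each library left out (a step added after the data were seen).

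SEA replicate 2 stood apart from the other PVN libraries in the ventral genes. It had 2.88 CPM of Nr5a1, against 7.54 and 8.13 in SEA replicates 1 and 3, and 9.47 CPM of Fezf1, against 16.0 and 17.1. Nkx2-1 was also lowest there, at 18.8 CPM, and the sum of the arcuate list was 32.4 CPM, against 58.0 to 101 in the other PVN libraries. Sim1 and Otp, at 14.5 and 26.0 CPM, were within the range of the other PVN libraries, and Pou3f2 was at its highest, 26.5 CPM. Without this library, Nr5a1 and Fezf1 were higher in both remaining SEA libraries than in each HT library, as were 11.8% of genes with at least 60 counts over the 5 libraries. The log2 fold change of Nr5a1 in SEA against HT was then 0.49 (SE 0.16, edgeR unadjusted p = 0.0201, adjusted p = 0.912) and that of Fezf1 0.22 (SE 0.11), and 1 of the 7 genes and 5.22% of all genes had an unadjusted p under 0.05. With PVN HT replicate 1 left out instead, it was Sim1 (0.29, SE 0.12, edgeR unadjusted p = 0.0399, adjusted p = 0.949) and Otp (0.23, SE 0.10, edgeR unadjusted p = 0.0452, adjusted p = 0.949) that were higher in SEA, against 4.34% of all genes.

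A test of any difference among the 4 treatments in the PVN called 0 of the 7 genes (edgeR, 0.0% of 17211 genes). At an unadjusted p under 0.05 there were 2, against 14.3% of all genes, and DESeq2 also gave 2. They were Fezf1 (edgeR unadjusted p = 0.0162, adjusted p = 0.346) and Arnt2 (edgeR unadjusted p = 0.0317, adjusted p = 0.346). Without PVN NC replicate 2 both passed the adjusted threshold, Arnt2 at 0.00591 and Fezf1 at 0.0365, as did 21.4% of all genes in that fit. PVN NC replicate 2, at 191 CPM of Arnt2, lay with the operated libraries (182 to 215 CPM), whereas NC replicates 1 and 3 had 151 and 162 CPM.

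**Figure D3:**
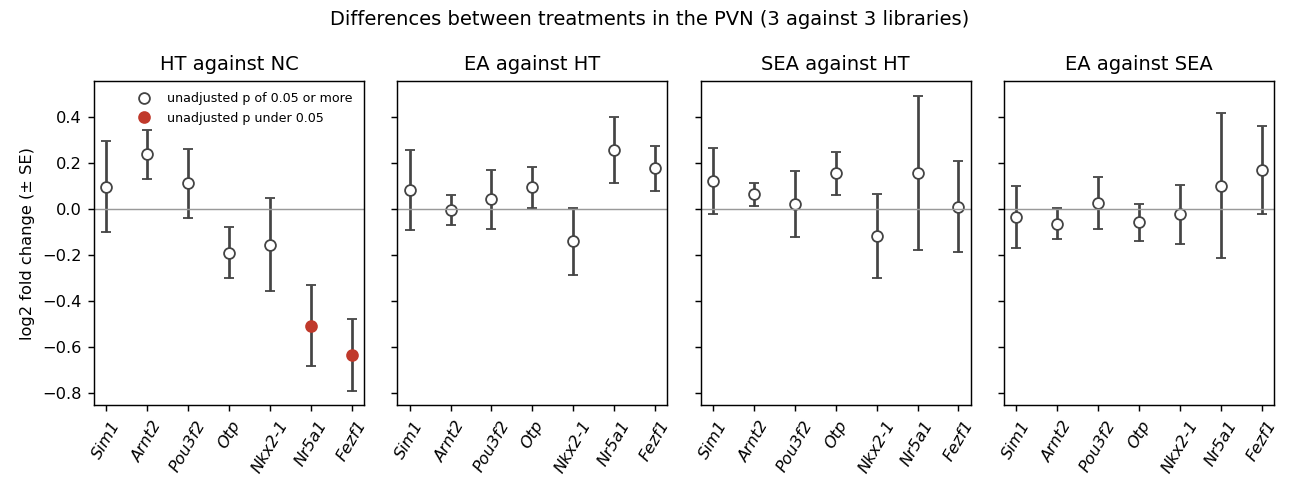
Log2 fold change of each gene in 4 comparisons within the PVN, with its standard error, for 3 against 3 libraries. Nr5a1 and Fezf1 are at -0.51 and -0.63 in HT against NC (filled, unadjusted p under 0.05), and the other values in the 4 panels lie between -0.19 and 0.26.

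In the CEA, 3 or 4 of the genes had enough counts to be tested, Arnt2, Pou3f2 and Nkx2-1 and, except in HT against NC, Otp. Of these, 0 passed the adjusted threshold or an unadjusted p under 0.05 by edgeR in HT against NC, EA against HT, SEA against HT or EA against SEA (0.0% of all genes passed the adjusted threshold in each, and 3.75%, 3.19%, 3.07% and 1.99% had an unadjusted p under 0.05). A test of any difference among the 4 treatments gave 0 as well (edgeR, 0.0% of all genes adjusted and 3.33% unadjusted). For Nkx2-1, whose CEA levels ran from 3.26 to 10.1 CPM, the log2 fold change of HT against NC was 0.29 (SE 0.44), and for Pou3f2 it was 0.12 (SE 0.22). Arnt2 averaged 162 ± 20.3 CPM in NC and 161 ± 17.6 CPM in HT (SD, n = 3). With needles it averaged 172 ± 37.3 CPM (EA) and 164 ± 27.9 CPM (SEA), and its groups overlapped throughout.

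Sim1 in the CEA was too low for the filter, and its counts are given as they are. HT replicates 1 to 3 held 0, 1 and 0 counts, NC replicates 16, 2 and 5, EA replicates 4, 12 and 5, and SEA replicates 5, 8 and 5. Each HT library was below each library of NC, EA and SEA. The ratio of the summed rates, HT against NC, was 0.0441 (1 against 23 counts, 95% interval 0.00107 to 0.272 for counting error only, which leaves out the spread between libraries), and HT against EA and SEA gave 0.0435 and 0.0495. CEA NC replicate 1 held 16 of the 23 counts of NC, and without it the ratio was 0.0955 (1 against 7 counts, interval for counting error 0.00212 to 0.743), a step added after the data were seen. With each library left out in turn the ratio against NC otherwise ran from 0 to 0.0684, that against EA from 0 to 0.0702 and that against SEA from 0 to 0.0768, each at 0 without CEA HT replicate 2. The share of genes whose groups separated as those of Sim1 was 4.83% in HT against NC, 5.13% in EA against HT and 4.91% in SEA against HT, among genes with at least 60 counts over 6 libraries, a level that Sim1 did not reach in the CEA. EA against SEA separated 0 of the 7 genes there, and 6.74% of all genes. With every gene kept, edgeR and DESeq2 gave 1 of the 7 genes, Sim1, an unadjusted p under 0.05 in each of these 3 comparisons, and 0 at the adjusted threshold. By edgeR this p was under 0.05 for 3.43%, 3.4% and 2.92% of all genes in the same fits, and by DESeq2 for 2.92%, 2.68% and 2.36%.

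Of the other genes near the counting limit, Fezf1 summed to 6 counts in HT and 26, 15 and 21 in NC, EA and SEA, Otp to 17 and 29, 30 and 39, and Nr5a1 to 8 and 10, 10 and 5, with overlapping groups. Otp had log2 fold changes of 0.79 (SE 0.77) in EA against HT and 1.23 (SE 0.83) in SEA against HT. CEA HT replicate 2 held 13 of the 17 counts of Otp in HT, and without it these were 2.26 (edgeR unadjusted p = 0.0158) and 2.70 (edgeR unadjusted p = 0.0161), with 0 of the 7 genes at the adjusted threshold, where 4.08% and 4.02% of all genes had an unadjusted p under 0.05.

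Whether a treatment acted differently in the PVN and the CEA was tested as an interaction. None of the 7 genes passed the edgeR adjusted threshold for the HT or the EA effect (0.0% of all genes in both). Sim1, Nr5a1 and Fezf1, and Otp in the fit for HT, passed the filter on low counts through their PVN libraries. The numbers of genes under a threshold are therefore no support on their own. With all libraries, Sim1 alone had an unadjusted p under 0.05, against 12.1% of 17405 genes for HT and 4.52% of 17299 for EA. Its difference between regions (PVN minus CEA, log2) was 4.16 for HT (SE 1.10, edgeR unadjusted p = 0.00265, adjusted p = 0.413) and -3.91 for EA (SE 0.90, edgeR unadjusted p = 0.000907, adjusted p = 0.355). Both rest on the single count of CEA HT, so their size depends on the prior count of the fit. Without CEA HT replicate 2, which holds that count, they were 6.08 and -5.85, and 3 of the 7 genes had an unadjusted p under 0.05 for either effect (Sim1, Otp and Fezf1), against 8.07% and 5.93% of all genes, with 0 of the 7 at the adjusted threshold. Otp was then at 1.99 (SE 0.74) and -2.17 (SE 0.46), and Fezf1 at 3.16 (SE 1.27) and -2.90 (SE 0.81).

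Genes of the medial amygdala, where Sim1 and Otp are also known, were read beside Sim1 in the CEA. In HT against NC, 0 of 3 had an unadjusted p under 0.05, and their median log2 fold change was -0.87, against 0.02 over all genes. The median was 1.11 in EA against HT and 0.83 in SEA against HT. Lhx9 and Lhx5 had the sign of Sim1 in all 3 comparisons. Lhx9, singled out after its values were seen, had log2 fold changes of -1.81 (SE 0.80) in HT against NC, 2.12 (SE 0.74, edgeR unadjusted p = 0.0204, adjusted p = 0.930) in EA against HT and 2.02 (SE 0.94) in SEA against HT. Lhx6, the third gene, was at 0.49, 0.31 and 0.03. The list summed to 6.28 to 12.4 CPM in CEA HT, within its range in CEA NC, and to 10.5 to 14.4 CPM in EA and 9.20 to 13.5 CPM in SEA. Other lists held genes at an unadjusted p under 0.05 in these comparisons (3.75%, 3.19% and 3.07% of all genes by edgeR), with 0 at the adjusted threshold. In HT against NC they were 2 of 4 astrocyte genes, Gfap (-0.83, SE 0.24) and Aqp4 (-0.66, SE 0.16). In EA against HT they were Crh of the PVN peptides (1.48, SE 0.38), Penk of the central amygdala (-0.65, SE 0.24) and Neurod6 of the cortex and basolateral amygdala (-3.40, SE 0.99). In SEA against HT it was the astrocyte gene Aldh1l1 (-0.58, SE 0.18). Choroid plexus genes had 1 of 4 at an unadjusted p under 0.05 in each of the 3 comparisons, Ttr (transthyretin), lower in HT. The part of such tissue in the counts of Sim1 was not tested.

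Variation between PVN libraries was then compared among the 7 genes. Otp varied least, with a coefficient of variation of 7.72% over the 12 libraries, and Fezf1 and Nr5a1 most, with 25.9% and 24.7%. Nkx2-1 had 18.2%, Sim1 14.8%, Pou3f2 10.8% and Arnt2 9.80%. All 21 pairs were correlated on log2 CPM with a permutation test, and 2 pairs had a p under 0.05 adjusted over the 21. The 12 libraries share their treatment groups and the scaling, and the genes of a pair are read from the same libraries.

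Nr5a1 and Fezf1 rose and fell together (Pearson r = 0.88, permutation p = 0.00019, adjusted p = 0.00199, Spearman rho = 0.86, permutation p = 0.00061, adjusted p = 0.0128, n = 12). PVN SEA replicate 2 was lowest and PVN NC replicate 1 highest in both genes. Without these 2 libraries, the farthest from the median of Nr5a1, r was 0.66. Within the 9 operated libraries r was 0.94, and after the mean of each treatment group was subtracted it was 0.90.

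Pou3f2 and Nkx2-1 varied inversely (r = -0.88, permutation p = 0.00014, adjusted p = 0.00199, rho = -0.80, permutation p = 0.00262, adjusted p = 0.0275, n = 12). Pou3f2 was lowest in PVN HT replicate 3, at 18.7 CPM, where Nkx2-1 was at 32.5 CPM, and highest in PVN SEA replicate 2, where Nkx2-1 was lowest. Without the 2 libraries farthest from the median of Pou3f2, r was -0.87. It was also -0.87 after the group means were subtracted and -0.88 within the 9 operated libraries.

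The factors that work as partners in PVN neurons were not correlated beyond the permutation test. Sim1 and Arnt2 had r = 0.46 (permutation p = 0.133, adjusted p = 0.247, rho = 0.52, permutation p = 0.0886), and Sim1 and Pou3f2 r = 0.45 (permutation p = 0.140, adjusted p = 0.247, rho = 0.35, permutation p = 0.267). Without the 2 libraries farthest from the median of Sim1 these were 0.02 and 0.29. For Sim1 and Otp r was 0.25 (permutation p = 0.427, adjusted p = 0.528, rho = 0.17, permutation p = 0.590), or 0.59 without the same 2 libraries. Sim1 and Nr5a1 had r = -0.27 (permutation p = 0.392, adjusted p = 0.514, rho = -0.16, permutation p = 0.619), or -0.28 without them. Nkx2-1 and Nr5a1, both of the ventral hypothalamus, had r = 0.64 (permutation p = 0.0202, adjusted p = 0.0850, rho = 0.57, permutation p = 0.0554), or 0.78 without the 2 libraries farthest from the median of Nkx2-1. Without PVN HT replicate 3 alone this pair reached 0.80 (permutation adjusted p = 0.0102), and 6 of the 21 pairs then had an adjusted p under 0.05.

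**Figure D4:**
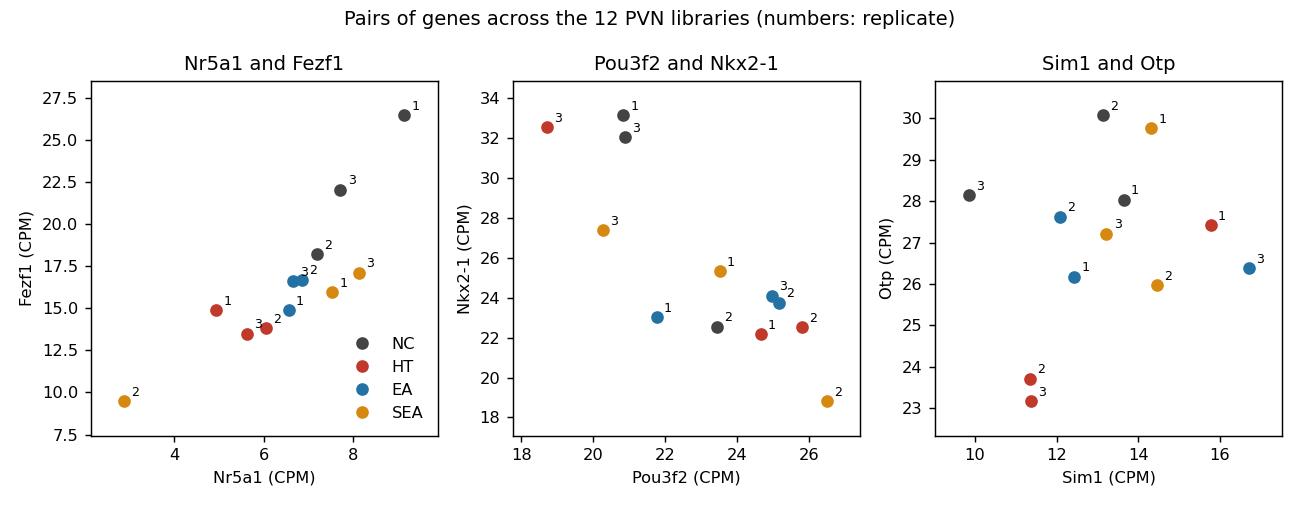
Levels (CPM) of 3 pairs of genes in the 12 PVN libraries, 1 point for a library, colored by treatment and numbered by replicate. Nr5a1 and Fezf1 lie along a rising line from SEA replicate 2 to NC replicate 1, Pou3f2 and Nkx2-1 along a falling one, and Sim1 and Otp form no line (r = 0.25).

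Among all 17211 genes that passed the filter in the PVN, the 3 with the highest Pearson r to each member over the 12 libraries are given as a description. For Nr5a1 they were Sox14 (r = 0.91), Gtf2ird2 (0.88) and Fezf1 (0.88). Sox14 is also one of the 3 other ventromedial genes of the list above. For Fezf1 they were Tmem53 (0.96), Akirin1 (0.93) and Nat10 (0.93), and for Nkx2-1 Snapc4 (0.91), Zc3hc1 (0.91) and Adcy2 (0.90). Arnt2 was closest to Nhs (0.98), Son (0.97) and Atf6 (0.97), and Pou3f2 to Cd34 (0.92), AABR07051882.1 (0.90) and Col8a2 (0.90). Sim1 was closest to AABR07042825.1 (0.88), Pdgfc (0.87) and Baz1b (0.87), and Otp to Ltbp1 (0.85), Recql4 (0.83) and F10 (0.83). With Spearman's rho in place of r, 2 of these 21 genes stayed among the 3 closest.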

How the data were processed

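Strand-specific mRNA libraries were made from 24 samples, 3 for each region and treatment. The authors deposited raw read counts, whole numbers without scaling. As the methods of the study describe, reads were filtered, mapped with HISAT2 to a genome named there as mRatBN7.2 and counted with featureCounts. Versions, and whether counting used strand, are not given in the sources used here. The table names no build, so positions are given as they stand in it. A stray second header line was left out, which exchanges CEA EA replicates 2 and 3 against the sample titles used here. No 2 libraries held identical values.

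Groups and replicate numbers came from sample titles. Each comparison was fitted on all genes of its own libraries by edgeR 4.0.16 in R 4.3.3 (quasi-likelihood test, two-sided, filterByExpr, TMM, Benjamini-Hochberg over all genes tested, threshold 0.05), with treatment as a term in the fit of operated rats. The fit was tested on simulated data. Alternatives were DESeq2 1.42.0, RLE factors, no filter, all 24 libraries in the fit, the replicate number as a block, and each library left out. Correlations used log2 CPM with a prior count of 2 and 100000 resamples, two-sided. Members, gene lists and the rule for named genes were chosen with earlier results of these data known. A member is given with its statistics in every comparison between regions, and otherwise where its unadjusted p was under 0.05. Values of the remaining members in PVN HT against NC and EA against HT, with intervals for Sim1, Arnt2, Pou3f2 and Otp, were added to that rule. From a list, the text names at most 2 genes per direction, chosen by smallest p in NC, and any other list gene was singled out after its values were seen. Same-numbered libraries deviated together in PVN NC and CEA NC (r over genes 0.29, 0.13 and 0.20 for replicates 1 to 3) and in CEA HT and CEA NC (0.24, 0.18 and 0.29), although the methods say that the samples were not from the same animal.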

Additional observations from a re-analysis of the deposited data

How the results depend on the processing

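Among the counts of the 7 genes called, DESeq2, RLE factors, no filter, all 24 libraries and the replicate block changed 0. With the replicate block, 5 genes were called between the regions in NC, with log2 fold changes of 4.78 for Sim1, 5.65 for Otp, 5.30 for Nr5a1, 5.50 for Fezf1, 2.39 for Nkx2-1, 0.59 for Pou3f2 and 0.06 for Arnt2, and 0 in CEA HT against NC, so the block changed no call. In the other comparisons the libraries share only a number. There the block moved the count of all genes called from 16 to 5 in PVN EA against HT. When each library was left out in turn, the count ran from 0 to 2 in PVN HT against NC and from 0 to 2 in the test of any difference in the PVN, both at 2 without PVN NC replicate 2, and from 5 to 6 between the regions in NC. The number of correlated pairs ran from 2 to 6. The log2 fold change of Arnt2 between the regions in NC ran from -0.05 to 0.17. It was below 0 when PVN NC replicate 2 (-0.0489) or CEA NC replicate 3 was left out. The count of all genes called ran from 2450 to 6152 between the regions in NC, from 0 to 3418 in PVN HT against NC and from 0 to 3732 in the test of any difference in the PVN. With all 24 libraries in the fit, neither Nr5a1 nor Fezf1 had an unadjusted p under 0.05 in PVN HT against NC, and with the block Fezf1 alone did. Of all genes, DESeq2 called 31 where edgeR called 2 (PVN HT against NC), 100 where it called 16 (PVN EA against HT) and 143 where it called 0 (any difference in the PVN). The causes of these changes were not tested. Depth limits Sim1, Otp, Nr5a1 and Fezf1 in the CEA, where a library held at most 23 counts of any of them.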
